A study of Mus musculus with 8 samples.

Results

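The difference between spinal muscular atrophy (SMA) and wild-type (WT) mice in motor neurons, and in the white matter around them, was measured as one average. For each gene, the SMA minus WT difference was taken in each region and the pair of differences was averaged, in a model that holds the region. All 8 libraries of the study entered, 2 in each of 4 groups, and 13948 of 23278 genes were tested, those with at least 1 RPKM (reads per kilobase of gene scaled to the reads of the library) in at least 2 of the 8 libraries. The account below is of genes that differed the same way in both regions.

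All mice were FVB/N at postnatal day 1, an age the study calls pre-symptomatic. SMA mice had the genotype SMN2+/+;SMNΔ7+/+;Smn-/-, so they lack mouse Smn and carry human SMN2 and a human SMN transgene without exon 7; WT mice were the controls, and the labels give them no SMN transgene. Ventral horn motor neurons and white matter were cut by laser from hematoxylin-stained sections of lumbar spinal cord, by shape and position and not by a marker. The labels do not say how many animals gave each library or whether a motor neuron and a white matter library came from the same animal. The spread between replicates may be partly technical. It also includes differences between animals, as the replicates of each group differed in the sex pattern given below.

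SMA follows when too little survival motor neuron protein (SMN) is made. SMN sits in a complex with the Gemin proteins that loads Sm rings onto the small nuclear RNAs of the spliceosome, a task of every cell. Motor neurons are the cells most visibly lost in the disease, while glia, vessels and the meninges also lack the protein; in mouse models, activation of the p53 pathway, with its target Cdkn1a, is a well known feature of motor neurons short of SMN.

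The deposited values corresponded to 77.5 to 102.8 M reads per library, and 11539 to 12796 genes per library reached 1 RPKM. Both SMA white matter libraries had more reads recovered on genes (68.2 and 64.5 M) than both WT white matter libraries (45.0 and 49.7 M). Marker lists separated the regions: 29 motor neuron genes summed to 3523 to 5187 scaled RPKM in motor neuron libraries and 140 to 233 in white matter libraries, and 23 genes of myelinating oligodendrocytes to 142 to 222 and 2610 to 5119. The labels give no sex, but in each of the 4 groups replicate 1 had Xist at 12 to 34.7 scaled RPKM and the Y-linked gene Ddx3y at 0, and replicate 2 had Xist at 0.0024 to 0.0529 and Ddx3y at 0.747 to 6.37. The replicate number thus follows the pattern of sex, each group holds 1 library of either kind, and leaving out 1 library unbalances the groups in this respect. SMA motor neuron replicate 2 stood apart from its partner, with a correlation of 0.889 across genes against 0.934 to 0.963 for the other replicate pairs, and lay at -53.1 on the second principal component where replicate 1 lay at 43.2. SMA white matter replicate 2 stood apart in 26 skeletal muscle genes, which summed to 402 scaled RPKM in it and 24.3 to 53.6 in the other 7 libraries.

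Across all genes the measured changes of the regions correlated only weakly. With limma and Benjamini-Hochberg adjustment, 0 of 13948 genes (0%) passed an adjusted p of 0.05 for the average over both regions, where the smallest adjusted p was 0.064, for Smn1 and Cdkn1a, followed by 0.0967 for Ptgds. A further test, limma-voom on reads worked back from the RPKM steps, called 1 gene, Cdkn1a. In the single regions, motor neurons and white matter, 0% of genes were called as well, with smallest adjusted p-values of 0.257 and 0.0698, and so were 0% for the difference between the regions (0.235). At an unadjusted p under 0.05, the average was higher in SMA for 352 genes (2.52%) and lower for 282 (2.02%), 634 in all against the 697 that 5% of the tested genes would make. Single libraries moved this count by over 1.5 times: it was 905 higher and 954 lower without SMA motor neuron replicate 1, 529 and 610 without SMA motor neuron replicate 2, 214 and 208 without WT motor neuron replicate 1, 196 and 170 without WT motor neuron replicate 2, and 229 and 185 without SMA white matter replicate 1. The single regions had 695 and 355 genes at that level and the difference between them 411.

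The changes of the 2 regions correlated at 0.0939 over the 13948 genes, a description across genes that share libraries and are not replicates. Each change rests on 2 libraries against 2, and noise between replicates lowers such a correlation. How much change the regions truly share was not tested. They had the same sign for 53.6% of genes. Of the 695 genes at unadjusted p under 0.05 in motor neurons, 397 (57.1%) had the same sign in white matter; of the 355 in white matter, 197 (55.5%) had the same sign in motor neurons. In 373 genes (2.67%) both SMA libraries lay above both WT libraries in each region, in 372 (2.67%) both lay below, and in 527 the groups were separate in both regions but in opposite directions.

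A stricter set held the genes at an unadjusted p under 0.05 in each region by itself. There were 16 that were higher in both (0.115%), 10 that were lower in both (0.0717%) and 17 that went opposite ways (0.122%). The 16 higher genes included Cdkn1a, 2010001M06Rik, Mir99a, H19, Col1a1, Tnnc2, Mt2, Crabp1, Srsf5, Hoxa6, Tpm2, Mir5134, Psrc1, Gsx1 and Slco2a1. The 10 lower genes were Smn1, Sdf2l1, Mir379, BC023829, Mir154, Tspan14, Stbd1, Fv1, BC068281 and 3010001F23Rik. Hoxa6, Mir5134, Gsx1 and Slco2a1 are named here only to fill out the set, after their values were seen. Below, groups called separate add little for any gene chosen by a small p. The 26 genes became 81 without SMA motor neuron replicate 1, 59 without SMA motor neuron replicate 2 and 14 without WT motor neuron replicate 2.

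**Figure D1:**
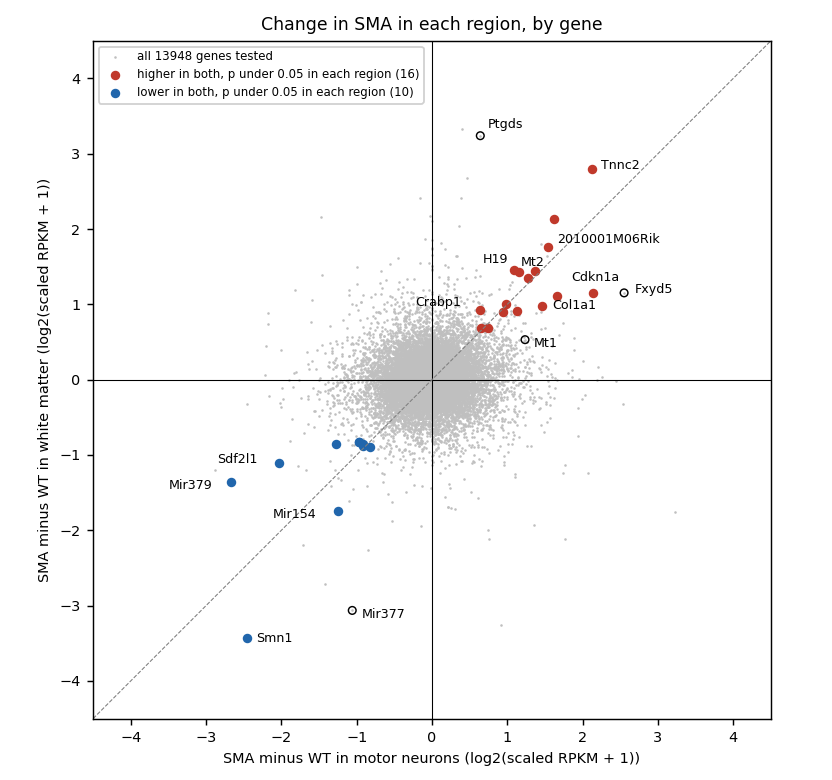
SMA minus WT change in motor neurons (horizontal) against white matter (vertical), on the log2(scaled RPKM + 1) scale, one point per gene for 13948 genes. Red and blue mark the 16 and 10 genes with an unadjusted p under 0.05 in each region and the same direction, open circles mark 4 other named genes, and the dashed line marks equal change; most genes lie in a round cloud, with a correlation of 0.0939.

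The deleted gene had the smallest p of the average. Smn1, the mouse gene for SMN, stood at 6.51 and 3.03 scaled RPKM (RPKM divided by a median-of-ratios factor per library) in WT motor neurons and at 5.92 and 15.9 in WT white matter. It was at 0 in all 4 SMA libraries, in each of which a floor of 3 reads amounts to at most 0.0353 scaled RPKM. WT libraries were therefore at least 155-fold above SMA in motor neurons and at least 504-fold above in white matter, by the mean of the libraries and counting error alone. On the log2(scaled RPKM + 1) scale the average change was -2.95 ± 0.34 (SE), with an adjusted p of 0.064 from limma; that value depends on the pseudocount and is no bound on the fold. The adjusted p was 0.0182 with a pseudocount of 0.1 and 0.0377 with 0.5, past the threshold. It did not pass in others, where the smallest adjusted p of any gene was 0.107 with no filter on low values (limma). With the replicate number held in the model, that smallest value was 0.172.

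Smn1 was the 1 gene of 8 tested in the SMN complex with an unadjusted p under 0.05 in the average. Of the 8, 7 had an average below 0, where 48.5% of all genes were above 0. Those below 0 in both regions numbered 2 (25%, against 27.8% of all genes). The list median was -0.09, from -0.27 in motor neurons and 0.08 in white matter. It turned to 0.04 on the deposited scale and was -0.24 without SMA white matter replicate 2 and -0.03 without SMA white matter replicate 1. Gemin7, one of the small Gemin subunits, came closest: 22.7 and 18.2 scaled RPKM in WT motor neurons, 6.24 and 24.3 in SMA motor neurons, 22.8 and 21.0 in WT white matter and 12.1 and 12.6 in SMA white matter. Its groups overlapped in motor neurons and were separate in white matter, with an average of -0.72 ± 0.34 and an unadjusted p of 0.0619. Among the proteins of the Sm and LSm rings, 1 of 20 tested, Lsm1, was lower at an unadjusted p under 0.05 and 0 were higher, where 2.02% and 2.52% of all genes were, a count that is no result about the list. Snrpa1, which encodes the U2 snRNP protein A', was higher: 8.75 and 10.5 scaled RPKM in WT and 20.5 and 21.4 in SMA motor neurons, and 12.6 and 12.4 in WT and 18.7 and 16.5 in SMA white matter. The groups were separate in both regions, and the average was 0.76 ± 0.18 with an unadjusted p of 0.00175. Srsf5, an SR splicing factor, had an average of 0.71 ± 0.20.

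Cdkn1a, the cyclin-dependent kinase inhibitor p21 and the classic p53 target, had the smallest p of the genes that were higher. It had 57.3 and 60.3 scaled RPKM in WT motor neurons and 236 and 292 in SMA motor neurons. In white matter it had 23.4 and 40.0 in WT and 67.7 and 70.3 in SMA. Every SMA library lay above every WT library of its region, and the SMA white matter level was slightly above that of WT motor neurons. The average was 1.64 ± 0.19, with a 95% interval of 1.21 to 2.08 and an adjusted p of 0.064 from limma. The change was 2.14 in motor neurons, against 1.14 in white matter; the difference between them, 1.00 ± 0.39, had an unadjusted p of 0.0291 and did not pass adjustment.

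Other p53 target genes were mostly above 0, though less evenly over the regions. Of 32 tested targets, 28 had an average above 0 (87.5%, against 48.5% of all genes tested). At an unadjusted p under 0.05, 9 were higher and 0 lower, against 2.52% and 2.02% of all genes. The list median was 0.31. That median was 0.60 in motor neurons and 0.11 in white matter. Psrc1, a spindle protein gene, was the target beside Cdkn1a that reached p under 0.05 in each region, from 0.555 and 0.0919 scaled RPKM in WT to 1.14 and 4.29 in SMA motor neurons, and from 4.72 and 0.925 to 10.9 and 5.83 in white matter. Its groups were separate in both regions, but its replicates differed several-fold, and the average of 1.41 ± 0.42 had an unadjusted p of 0.00808. Sesn2, a stress-induced sestrin, was at 8.39 and 5.91 in WT and 12.5 and 20.2 in SMA motor neurons, and at 6.21 and 5.68 in WT and 6.73 and 10.1 in SMA white matter. Its groups were also separate, with an average of 0.75 ± 0.24. Plk2, a polo-like kinase, had an average of 0.75 ± 0.22 that came mainly from motor neurons, where the change was 1.26 against 0.24 in white matter. Trp53, which encodes p53 itself, had an average of 0.94 ± 0.30 and overlapping groups in white matter, with WT at 20.4 and 11.3 scaled RPKM and SMA at 29.8 and 17.1. Mdm2, the p53 ubiquitin ligase and also a target, had an average of -0.09.

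Both inducible metallothioneins were higher in SMA. They are small cysteine-rich proteins that bind zinc and copper, and their genes are switched on by metals, glucocorticoids and oxidative stress. Mt1 had 57.8 and 37.0 scaled RPKM in WT and 97 and 125 in SMA motor neurons, and 292 and 239 in WT and 390 and 375 in SMA white matter. Mt2 had 99.8 and 68.3 in WT and 110 and 283 in SMA motor neurons, and 381 and 240 in WT and 826 and 840 in SMA white matter. For both genes the groups were separate in each region, although the SMA motor neuron replicates of Mt2 lay far apart. The averages were 0.88 ± 0.19 for Mt1 (unadjusted p 0.000973) and 1.27 ± 0.29 for Mt2 (unadjusted p 0.00164). The limma adjusted p was 0.997 for both. With 1 library left out, the average ranged from 0.72 to 1.04 for Mt1 and from 0.93 to 1.61 for Mt2. Of the other genes in this list of 6, Mt3, the brain metallothionein, had an average of 0.75 ± 0.41 with overlapping groups in both regions. The zinc exporter Slc30a1, the zinc importer Slc39a10 and the metal sensor Mtf1 lay between -0.07 and -0.03.

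The promoter of Mt2 is shown because metal-responsive genes carry copies of a short core that the factor MTF1 recognises. The pattern searched was TGCNCNC, with N for any base. It is looser than that core, so some matches may fall outside the core. The 250 bases before the RefSeq start of Mt2 (GRCm38.p6, chr8:94172368-94172617, plus strand) are given 5′ to 3′. Matches to the pattern on either strand are in capitals.
Mt2: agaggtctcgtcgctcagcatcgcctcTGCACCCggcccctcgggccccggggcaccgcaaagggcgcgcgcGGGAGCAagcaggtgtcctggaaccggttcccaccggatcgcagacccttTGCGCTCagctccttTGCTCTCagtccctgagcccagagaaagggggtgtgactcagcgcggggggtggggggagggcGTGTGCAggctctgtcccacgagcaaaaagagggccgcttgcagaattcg
The window held 5 matches, and 0.344% of the 32851 RefSeq promoter windows of that length held as many or more. The window before the RefSeq start of Mt1 held 1 match, and 44.4% of all windows held at least 1. These are matches of letters, not binding sites. Only the 250 bases before these RefSeq starts were searched, so the count for Mt1 leaves out any match elsewhere.

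Ptgds, H19, Igf2 and Col1a1 had averages above 0 and stood at higher levels in white matter than in motor neurons. Ptgds, the prostaglandin D2 synthase that meningeal cells secrete, had 15.8 and 17.5 scaled RPKM in WT white matter and 149 and 184 in SMA white matter. In motor neurons it had 6.24 and 6.49 in WT and 16.2 and 6.67 in SMA, so the groups were barely separate there. The average was 1.94 ± 0.25 (adjusted p 0.0967 from limma), made of 3.24 in white matter and 0.64 in motor neurons. The regional difference of -2.60 ± 0.51 had an unadjusted p of 0.000492 and did not pass adjustment. With 1 library left out, the average of Ptgds ranged from 1.65 to 2.23.

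H19, an imprinted non-coding RNA, and Igf2, its imprinted neighbour that encodes insulin-like growth factor 2, had changes of more similar size in the regions. H19 had 1.31 and 2.03 scaled RPKM in WT and 6.5 and 3.61 in SMA motor neurons, and 45.3 and 27.4 in WT and 71.2 and 131 in SMA white matter. The groups were separate in both regions and the average was 1.29 ± 0.28 (unadjusted p 0.00105). Igf2 had 6.46 and 9.27 in WT and 19.5 and 8.29 in SMA motor neurons, and 49.7 and 64.8 in WT and 116 and 138 in SMA white matter. Its groups overlapped in motor neurons, and the average was 0.90 ± 0.26 (unadjusted p 0.00665). In the list of 13 insulin-like growth factor genes, 11 were above 0, against 48.5% of all genes tested. At an unadjusted p under 0.05, 2 (H19 and Igf2) were higher and 0 lower, against 2.52% and 2.02% of all genes. The list median was 0.25 (0.15 without SMA white matter replicate 1 and 0.39 without SMA white matter replicate 2).

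Col1a1, the type I collagen chain made by fibroblasts, had 0.424 and 0.0284 scaled RPKM in WT and 2.90 and 1.83 in SMA motor neurons. In white matter it had 18.4 and 21.1 in WT and 51.2 and 31.0 in SMA. The groups were separate in both regions, with an average of 1.22 ± 0.25 (unadjusted p 0.000714), made of 1.46 in motor neurons and 0.98 in white matter. Slco2a1, a prostaglandin transporter of vessels, had an average of 1.00 ± 0.31.

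**Figure D2:**
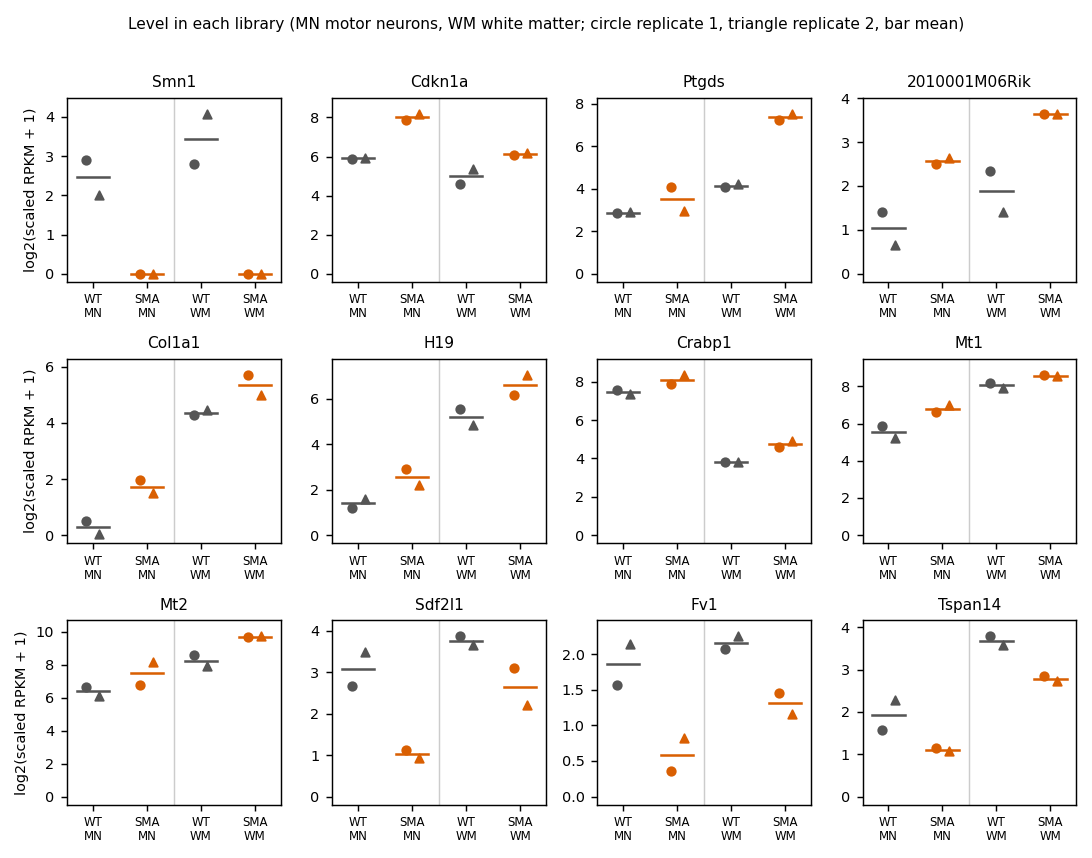
Level of 12 genes in each of the 8 libraries, as log2(scaled RPKM + 1), with WT in grey, SMA in orange, circles for replicate 1, triangles for replicate 2 and a bar at the mean of 2 libraries. Smn1 is at 0 in all SMA libraries; Cdkn1a, 2010001M06Rik, Col1a1, H19, Crabp1, Mt1 and Mt2 are higher and Sdf2l1, Fv1 and Tspan14 lower in SMA in both regions with no overlap, while Ptgds is high mainly in SMA white matter.

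Several of these genes mark cells outside the neural tissue. Of 15 tested genes of the fibroblast or meninges list, 14 had an average above 0, against 48.5% of all genes tested. At an unadjusted p under 0.05, 7 were higher (Ptgds, Col1a1, Igf2, Mgp, Fmod, Col1a2 and Aldh1a2), against 2.52% of all genes. The list median was 0.73. The summed level of the list was 36.8 and 87.0 scaled RPKM in WT and 128 and 96 in SMA motor neurons, and 149 and 219 in WT and 497 and 475 in SMA white matter. Its median was 0.21 in motor neurons, against 0.88 in white matter, and that over both regions was 0.44 without SMA motor neuron replicate 1. Mgp, a matrix protein, was at 0 in all 4 motor neuron libraries and reached 4.71 and 3.13 in SMA white matter, from 0.666 and 0.864 in WT. The stromal collagen Col3a1 and the proteoglycan Dcn had averages of 0.66 ± 0.30 and 0.91 ± 0.49. In captured tissue, more cells of a type and more RNA per cell cannot be told apart, and the part of meningeal cells in the values of Ptgds, Igf2, H19 and Col1a1 was not tested.

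Vascular markers leaned the same way. Of 16 endothelial genes, 14 were above 0, against 48.5% of all genes tested. At an unadjusted p under 0.05, 3 were higher (Mfsd2a, Slc2a1 and Tie1), against 2.52% of all genes. The list median was 0.40, with summed levels of 65.6 to 97.7 scaled RPKM in WT and 91.5 to 135 in SMA libraries. Slc2a1, the glucose transporter of the blood-brain barrier, had 24.2 and 24.2 in WT and 28.1 and 40.0 in SMA motor neurons, and 31.7 and 29.8 in WT and 42.9 and 39.9 in SMA white matter. Its groups were separate in both regions, with an average of 0.44 ± 0.17. Of 12 pericyte genes, 10 were above 0 and 3 were higher (Higd1b, Vtn and Pdgfrb), beside the same 48.5% and 2.52% of all genes. Their median was 0.36. Of 13 spinal interneuron genes, 12 were above 0 and 2 were higher (Lhx5 and Slc32a1), beside the same 48.5% and 2.52%. Their median was 0.36, and Lhx5, a transcription factor of dorsal interneurons, differed by 1.25 in motor neurons and by -0.05 in white matter.

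Microglial genes were above 0 in 19 of 25 cases, against 48.5% of all genes tested, with a median of 0.20 (0.33 without SMA white matter replicate 1). At an unadjusted p under 0.05, 4 were higher and 1 lower, against 2.52% and 2.02% of all genes. The median was 0.45 in motor neurons and 0.05 in white matter. Cd68, a lysosomal protein of phagocytes, came closest to a shared difference: 0.218 and 0.621 scaled RPKM in WT and 2.73 and 4.93 in SMA motor neurons, and 5.35 and 8.68 in WT and 11.4 and 13 in SMA white matter. Its groups were separate in both regions and the average was 1.24 ± 0.26 (unadjusted p 0.000898). C1qc, a chain of the complement initiator C1q, had an average of 0.78 ± 0.17 made of 1.52 in motor neurons and 0.05 in white matter, a regional difference of 1.48 ± 0.35. Itgam, the microglial integrin CD11b, was lower, with 1.78 and 0.541 in WT and 0.209 and 0.256 in SMA motor neurons and 11.6 and 10.8 in WT and 6.88 and 7.55 in SMA white matter.

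**Figure D3:**
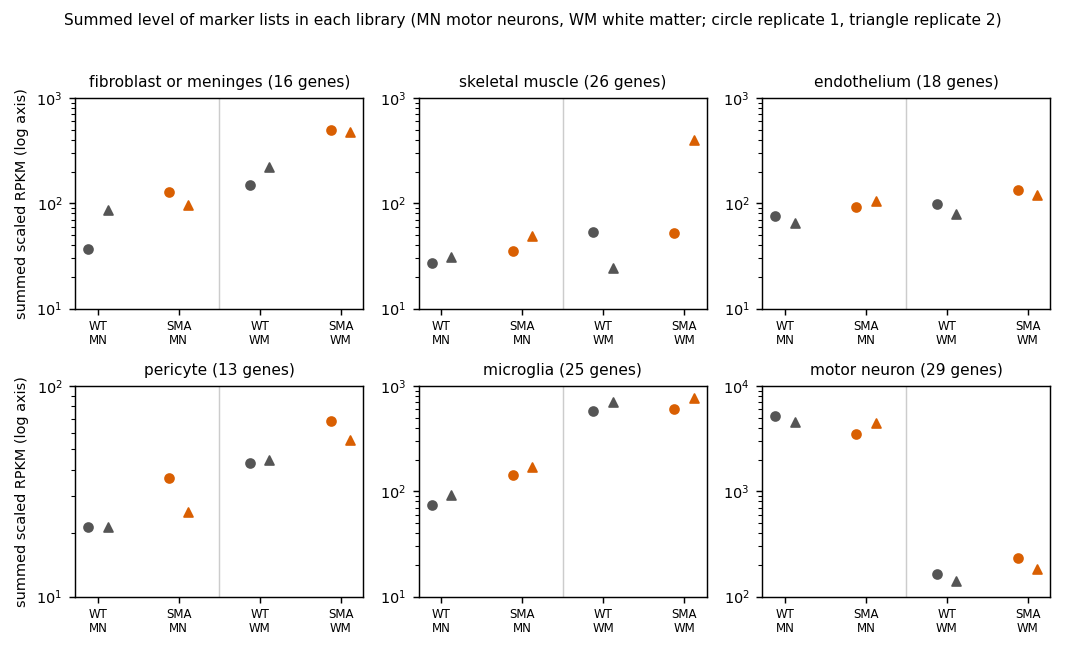
Summed scaled RPKM of 6 marker lists in each library on a log axis, with WT in grey, SMA in orange, circles for replicate 1 and triangles for replicate 2. The fibroblast or meninges sum is 475 and 497 in SMA white matter against 149 and 219 in WT, and the skeletal muscle sum of 402 is that of SMA white matter replicate 2.

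The stricter set held 2 skeletal muscle genes, Tnnc2 and Tpm2. Tnnc2, the fast skeletal troponin C, had 25.8 scaled RPKM in SMA white matter replicate 2 and 2.90 in replicate 1, against 1.15 and 0 in WT white matter; in motor neurons it had 0 and 0 in WT and 2.07 and 5.22 in SMA. Tpm2, a tropomyosin, had 32.1 and 5.83 in SMA and 3.11 and 1.85 in WT white matter, and 1.11 and 4.78 in SMA and 0.240 and 0.0444 in WT motor neurons. Both were thus higher in SMA in both regions with no overlap, which adds little for genes chosen by their p in each region. Of 15 muscle genes tested, from a list added after these values were seen, 13 were above 0, against 48.5% of all genes tested. At an unadjusted p under 0.05, 5 were higher, against 2.52% of all genes. The median was 0.72, 0.32 without SMA white matter replicate 2 and 1.23 without SMA white matter replicate 1. The part of muscle RNA in the white matter values was not tested.

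Other genes with a small p for the average belonged to none of these lists. The uncharacterised gene 2010001M06Rik had 1.66 and 0.586 scaled RPKM in WT and 4.69 and 5.23 in SMA motor neurons, and 4.09 and 1.66 in WT and 11.5 and 11.4 in SMA white matter. The SMA replicates agreed closely, and the average of 1.65 ± 0.29 was much the same in the regions (1.54 and 1.76; unadjusted p 0.000202, adjusted p 0.605 from limma). Crabp1, a retinoic acid binding protein, was higher by 0.78 ± 0.18, from 190 and 166 to 235 and 325 in motor neurons and from 13.3 and 13.1 to 23.0 and 29.2 in white matter. Outside the stricter set, Fxyd5, a regulator of the sodium pump, was higher by 1.85 ± 0.37, with groups separate in both regions: 1.76 and 0.0932 in WT and 7.62 and 11.0 in SMA motor neurons, and 5.73 and 2.72 in WT and 14.8 and 6.82 in SMA white matter. C1qtnf2, a secreted C1q-like protein, had 0.104 and 0 in WT and 2.03 and 2.79 in SMA motor neurons, and under 1 RPKM in all white matter libraries. Hoxa6, a homeobox gene, had an average of 0.67 ± 0.20.

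Sdf2l1, a cofactor of the endoplasmic reticulum chaperone BiP, was the protein-coding gene beside Smn1 with the smallest p among those lower in SMA. It had 5.31 and 10.1 scaled RPKM in WT and 1.19 and 0.913 in SMA motor neurons, and 13.5 and 11.6 in WT and 7.52 and 3.60 in SMA white matter. The groups were separate in both regions, and the average was -1.57 ± 0.28 (unadjusted p 0.000278, adjusted p 0.646 from limma). Within 29 genes of the unfolded protein response and amino acid stress, 18 were below 0, where 48.5% of all genes were above 0. At an unadjusted p under 0.05, 4 were lower (Sdf2l1, Xbp1, Manf and Asns) and 1 was higher (Sesn2), against 2.02% and 2.52% of all genes. Xbp1, a transcription factor of the response, was at 50.5 and 42.0 in WT and 23.3 and 22.7 in SMA white matter, and at 31.7 and 26.2 in WT and 30.2 and 19.5 in SMA motor neurons, where the groups overlapped. Manf, a secreted factor of the endoplasmic reticulum, was at 10.6 and 8.94 against 4.27 and 8.06 in motor neurons and at 13.7 and 14.7 against 9.43 and 8.33 in white matter, separate in both. The list median of -0.07 turned to 0.07 on the deposited scale and to 0.02 without SMA motor neuron replicate 2, and was -0.23 without SMA motor neuron replicate 1.

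Most genes of cholesterol synthesis had an average below 0, but few had a small p. Of 23 tested, 19 were below 0 in the average, 14 were below 0 in both regions and 0 were above 0 in both, with a median of -0.27 (-0.13 in motor neurons, against -0.53 in white matter, and -0.13 for the average on the deposited scale). At an unadjusted p under 0.05, 2 were lower and 0 higher, against 2.02% and 2.52% of all genes tested. Over all genes, 48.5% had an average above 0, 25.7% were above 0 in both regions and 27.8% below 0 in both. Sqle, squalene epoxidase, had 79.1 and 66.7 scaled RPKM in WT and 44.5 and 37.5 in SMA white matter, but 113 and 131 against 122 and 111 in motor neurons, where the groups overlapped. Of 62 histone genes that are transcribed in S phase, 53 were below 0, with a median of -0.23 that was 0.07 in motor neurons and -0.47 in white matter, -0.04 over both regions without WT white matter replicate 1 and -0.43 without WT white matter replicate 2. Genes of this family share reads with near-identical copies.

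The stricter set held further lower genes. Fv1, a retrovirus restriction gene, had 1.98 and 3.42 scaled RPKM in WT and 0.280 and 0.764 in SMA motor neurons, and 3.21 and 3.76 in WT and 1.75 and 1.23 in SMA white matter. Tspan14, a tetraspanin, had 2 and 3.85 against 1.20 and 1.11 in motor neurons and 12.8 and 11.0 against 6.21 and 5.60 in white matter. Stbd1, a starch-binding protein of glycogen, had 6.61 and 5.38 against 2.68 and 2.74 and, in white matter, 3.24 and 1.42 against 0.724 and 0.803. The groups of these 3 genes were separate in both regions, which adds little for genes chosen by their p in each region. Their averages were -1.06 ± 0.26, -0.86 ± 0.24 and -0.89 ± 0.26. BC023829, BC068281 and 3010001F23Rik, which carry no gene name, had averages of -0.90 ± 0.24, -0.90 ± 0.25 and -0.90 ± 0.26. Outside the stricter set, Trip13, a mitotic checkpoint ATPase, had an average of -0.87 ± 0.23, and Hbs1l, a ribosome rescue factor, one of -0.69 ± 0.17 that came from motor neurons (-1.10, against -0.27 in white matter).

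Of the 15 lower genes with the smallest p among those of the same sign in both regions, 7 were microRNA genes. MicroRNAs are short RNAs that are cut from hairpins in longer transcripts and repress messages through their seed, bases 2 to 8. The libraries were cut to fragments longer than a mature microRNA, so the values at these genes are reads on the hairpin locus and can include its host transcript. Many of the lower ones lie in the imprinted Dlk1-Dio3 region on chromosome 12, whose maternal copy makes the long non-coding RNAs Meg3, Rian and Mirg with a large microRNA cluster. One mature arm is shown for each of Mir379, Mir154, Mir679 and Mir377, which had the smallest p in this region, and for Mir1193, whose 5′ arm shares the seed of miR-379-5p. They are set beside Mir99a, the microRNA gene that was higher in both regions with the smallest p (RefSeq, GRCm38.p6; the seed is in capitals).
mmu-miR-379-5p: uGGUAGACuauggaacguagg
mmu-miR-1193-5p: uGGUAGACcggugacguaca
mmu-miR-154-5p: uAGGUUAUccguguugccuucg
mmu-miR-679-5p: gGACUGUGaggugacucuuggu
mmu-miR-377-3p: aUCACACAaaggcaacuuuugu
mmu-miR-99a-5p: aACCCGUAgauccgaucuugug
Apart from the pair of miR-379-5p and miR-1193-5p, the 22 mature arms of the 12 lower microRNA genes of the region that had a RefSeq match all had different seeds, 21 seeds in all.

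Mir379 had 10.8 and 23.4 scaled RPKM in WT and 2.77 and 0.875 in SMA motor neurons, and 2.53 and 0.871 in WT and 0 and 0 in SMA white matter. In reads these were 68 and 116, 17 and 4, 13 and 5, and 0 and 0. The groups were separate in both regions, the average was -2.02 ± 0.35 (unadjusted p 0.000217, adjusted p 0.605 from limma), and the white matter part rests on few reads. Mir154 had 12.7 and 27.0 in WT and 5.38 and 9.63 in SMA motor neurons, and 1.17 and 4.18 in WT and 0 and 0 in SMA white matter, with an average of -1.50 ± 0.36. Mir377 had 73.9 and 59.6 in WT and 13.6 and 70.5 in SMA motor neurons, where the groups overlapped, and 25.2 and 7.94 in WT and 0 and 2.34 in SMA white matter. Its average of -2.06 ± 0.55 had an unadjusted p of 0.00425.

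In the region as a whole, chosen after these values were seen, 41 of 59 tested genes had an average below 0, with a median of -0.32. Over all genes, 48.5% had an average above 0. At an unadjusted p under 0.05 in the average, 16 were lower and 0 higher, where 2.02% and 2.52% of all genes were. Of the 59, 25 were below 0 in both motor neurons and white matter (42.4%, against 27.8% of all genes). Those above 0 in both numbered 5 (8.47%, against 25.7%). The 2 that reached an unadjusted p under 0.05 in each were Mir379 and Mir154. The median was -1.07 with limma-voom, whose scale has no pseudocount of 1 RPKM. Of these 16, 13 were microRNA genes, and 11 had fewer than 150 reads in every library. The microRNA genes outside the region had a median of -0.11, with 10 of 199 higher and 23 lower. Rian, the host of a small nucleolar RNA cluster, is long and well covered: it had 69.5 and 72.2 scaled RPKM in WT and 58.1 and 38.1 in SMA motor neurons, and 15 and 16.8 in WT and 11.4 and 11.6 in SMA white matter. Its groups were separate in both regions with an average of -0.50 ± 0.18 (unadjusted p 0.022). Mirg, the host of the Mir379 cluster, had 8.31 and 6.83 against 4.52 and 7.84 in motor neurons, where the groups overlapped, and 2.10 and 1.98 against 0.123 and 0.443 in white matter, with an average of -0.77 ± 0.25. The median of the region was -0.62 without SMA motor neuron replicate 2 and -0.18 without replicate 1.

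**Figure D4:**
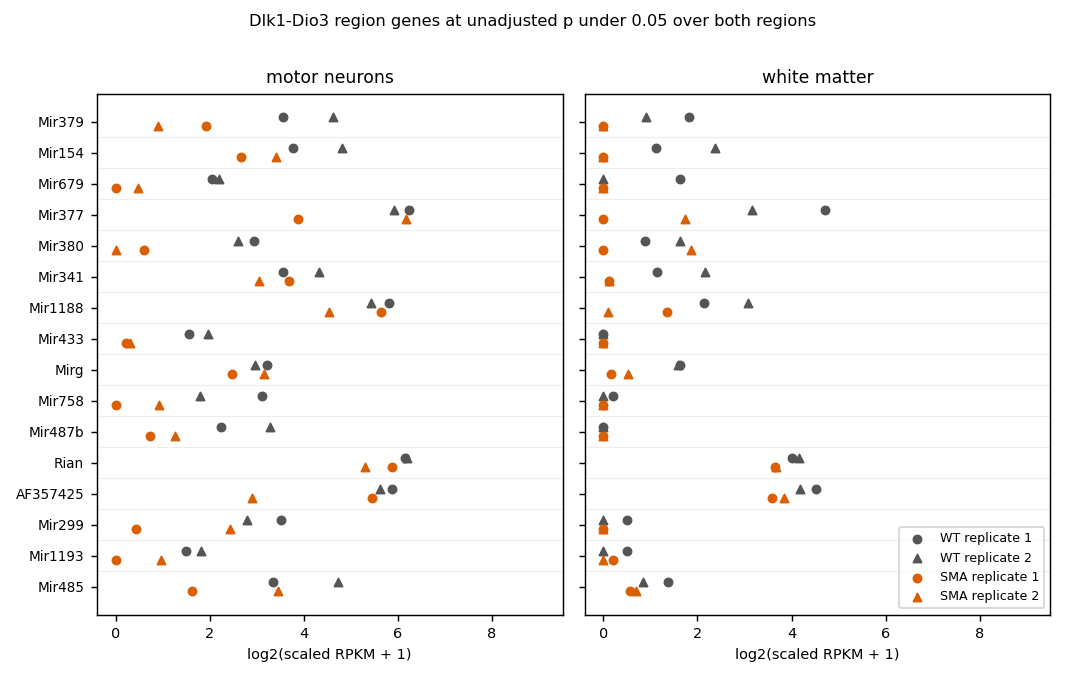
The 16 genes of the Dlk1-Dio3 region with an unadjusted p under 0.05 over both regions, each with its log2(scaled RPKM + 1) in the 4 motor neuron libraries (left) and the 4 white matter libraries (right), WT in grey and SMA in orange, circles for replicate 1 and triangles for replicate 2. Most SMA points lie left of the WT points in motor neurons, and many white matter values are at or near 0, as for Mir379 at 0 and 0 in SMA.

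Outside the region, Mir99a was higher, with 2.10 and 2.05 scaled RPKM in WT and 8.77 and 4.67 in SMA motor neurons, and 3.56 and 5.30 in WT and 8.73 and 18.2 in SMA white matter. Its reads numbered 10 to 134 per library, the groups were separate in both regions, and the average was 1.31 ± 0.29 (unadjusted p 0.00132). Mir346 was at 0 in all SMA libraries and had 3.28 and 4.34 scaled RPKM (25 and 37 reads) in WT white matter, but 2.25 and 0 in WT motor neurons, where the groups touched at 0. Mir344-2 had 14.8 and 17.5 in WT and 1.21 and 1.44 in SMA motor neurons, and 8.52 and 8.33 in WT against 0.887 and 7.97 in SMA white matter. Its white matter difference came from SMA replicate 1, and the average was -2.04 ± 0.42.

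Several groups showed no common direction in the average. The 28 motor neuron genes had a median of 0.00, from -0.30 in motor neurons and 0.25 in white matter, with 2 higher and 2 lower at an unadjusted p under 0.05; among the lower was Chodl, a marker of fast motor neurons, at -0.78 ± 0.24, of which -1.25 was in motor neurons. The 75 nuclear-encoded respiratory chain genes had a median of -0.01 with 0 higher and 0 lower, the 75 cytosolic ribosomal protein genes one of -0.04 with 0 and 0, and the 18 interferon response genes one of 0.00 with 0 and 0. Those 3 medians were above 0 on the deposited scale, at 0.14, 0.11 and 0.12, and all 4 medians took either sign as single libraries were left out. The 30 genes of proliferating cells had a median of -0.12 with 0 higher and 0 lower, 0.03 on the deposited scale, -0.26 without SMA white matter replicate 1 and 0.06 without SMA white matter replicate 2.

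**Figure D5:**
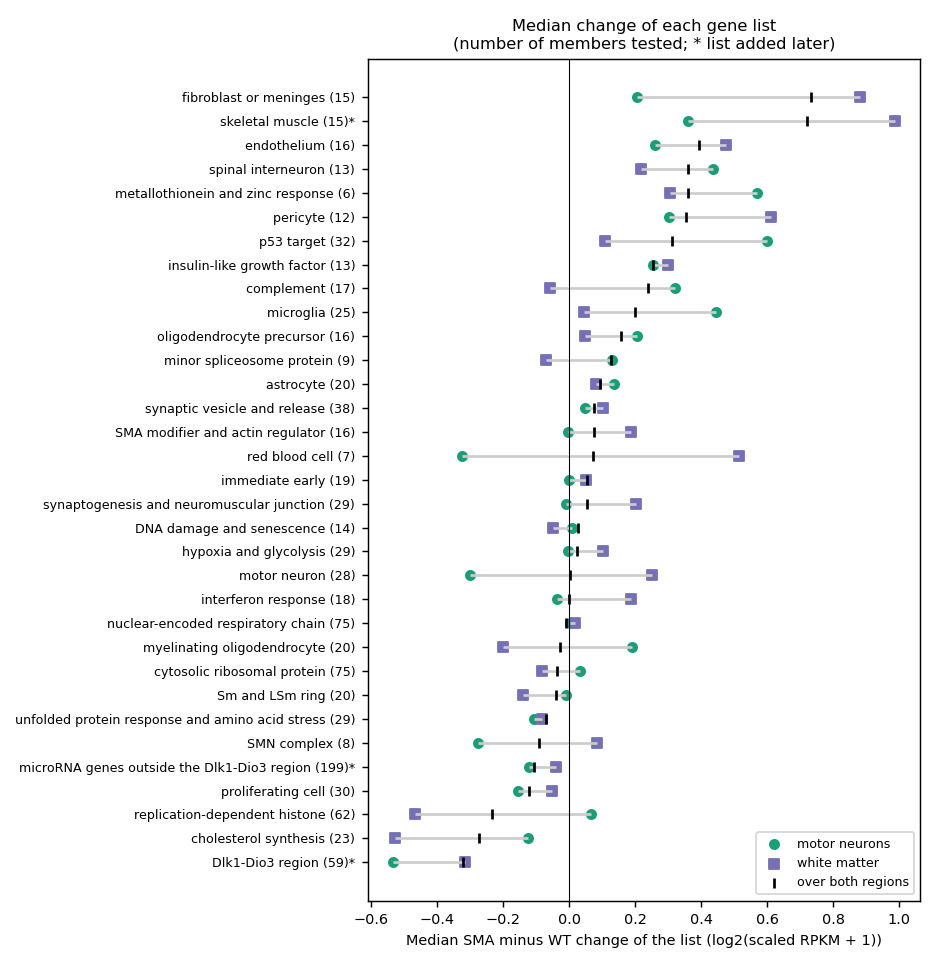
Median SMA minus WT change of each gene list with at least 5 tested members, on the log2(scaled RPKM + 1) scale, in motor neurons (green circles), white matter (purple squares) and over both regions (black bars), with the number of members tested in brackets. Fibroblast or meninges genes stand at 0.73 over both regions and cholesterol synthesis genes at -0.27, and several lists, such as motor neuron genes at -0.30 and 0.25, differ in sign between the regions.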

How the data were processed

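RNA-seq of total RNA was measured in 8 laser-captured libraries. The authors deposited 1 table of RPKM values per library, with gene symbols. The submitters' processing notes name the mm9 genome, DESeq, bedtools and TopHat. The counting rule, annotation and tool versions are not stated in the labels or files, so genes with near-identical copies and overlapping or antisense genes are uncertain. Some symbols read as dates and are not reported by name.

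RPKM was divided by median-of-ratios factors (0.840 to 1.16, from 14001 genes above 0 in all libraries) and log2(value + 1) was tested with limma 3.58.1 in R 4.3.3: 4 group means, all 8 libraries, eBayes with trend, two-sided, Benjamini-Hochberg over 13948 genes. Without the factors the median of all genes shifts from -0.01 to 0.11 (0.27 in white matter), and 703 genes are higher and 133 lower at an unadjusted p under 0.05; changes are given relative to that shift. For 16842 of 16845 genes (99.98%) a length gave whole reads within 0.02 of a read. These reads served for limma-voom, an alternative added after seeing the data. Floors of 3 reads cover counting error only. The model was tested on simulated data.

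The members and gene lists were chosen with earlier results of these data known, and no list was tested as a set. Named genes were Smn1, the 15 genes per direction with the smallest p among those of the same sign in both regions, up to 10 per direction with the smallest larger regional p, and up to 4 genes per described list; those in lists added later, or named only in a count, were chosen after their values were seen. Figures used Python 3.11.15 with matplotlib 3.10.9. Some named-gene results are not reported here.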

Additional observations from a re-analysis of the deposited data

How the results depend on the processing

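In 22 alternatives (other scalings, pseudocounts, filters and variance models, each library left out) none of 76 genes followed changed direction, and 12 of 1656 gene values passed an adjusted p of 0.05, all of Smn1, Cdkn1a, Ptgds or Mt2. Nearly all of these genes were chosen for a small p in the same libraries that the alternatives reuse. Keeping their direction was thus almost fixed in advance. Against 0 genes called over both regions, quantile normalization called 3 (Cdkn1a, Ptgds and Smn1) and limma-voom called 1 (Cdkn1a). A pseudocount of 0.1 called 1, one of 0.5 called 1 and the mean of the regions called 1 (Smn1 in each of these). Leaving out 1 library gave 0 to 13: 13 without SMA motor neuron replicate 1 and 1 without SMA motor neuron replicate 2. For motor neurons alone, 2 genes were called with no filter on low values, 1 with limma-voom and 0 to 67 with 1 library left out. For white matter alone, quantile normalization called 1, limma-voom called 1 and leaving out 1 library 0 to 1. For the difference between the regions, leaving out 1 library gave 0 to 8, with 8 without SMA motor neuron replicate 1.

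The 26 genes at an unadjusted p under 0.05 in each region in the same direction became 43 on the deposited scale, 40 with no filter, 14 with limma-voom and 14 to 81 with 1 library left out: 81 without SMA motor neuron replicate 1, 59 without SMA motor neuron replicate 2 and 14 without WT motor neuron replicate 2. Of the 26, limma-voom kept 10. List medians that moved by over 1.5 times with limma-voom, whose scale differs for low genes, included those of p53 targets (0.50), microglia (0.46), spinal interneurons (0.68) and pericytes (0.57). Skeletal muscle (1.5), complement (0.83), proliferating cells (-0.22) and the Dlk1-Dio3 region (-1.07) were also among them. On the deposited scale, the medians that did so included those of microglia (0.32), insulin-like growth factors (0.39), cholesterol synthesis (-0.13) and histones (-0.11). With an arm of 1 library, that library is assumed to vary like the others. With the replicate number as a replicate block, 0 genes were called over both regions (smallest adjusted p 0.172) and 23 genes made the stricter set, of which 19 were shared with the 26. The number follows Xist and Ddx3y in all 4 groups, so this block also holds the sex pattern. Over all genes, replicate differences correlated between groups at only -0.353 to 0.078, and whether same-numbered libraries share an animal is not given. Depth limits the microRNA genes, as 11 of the 16 lower genes of the Dlk1-Dio3 region had fewer than 150 reads in every library.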

Other observations

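At an unadjusted p under 0.05 in each region, 17 genes went in opposite directions, against 26 in the same direction (16 higher and 10 lower in both). The genes described here were chosen for their values, so the values are a description. Gal, which encodes the neuropeptide galanin, had 2.58 and 2.71 scaled RPKM in WT and 8.44 and 15.2 in SMA motor neurons, and 2.56 and 0.691 in WT and 0.0127 and 0.241 in SMA white matter. Igf1, insulin-like growth factor 1, had 54.2 and 55.6 in WT and 22.8 and 34 in SMA motor neurons, but 4.85 and 3.54 in WT and 6.41 and 9.74 in SMA white matter. It thus went against Igf2 and H19 in motor neurons and with them in white matter. Mir453, a microRNA gene of the Dlk1-Dio3 region, had the smallest p for a difference between motor neurons and white matter. This difference was -3.63 ± 0.46 on the log2(scaled RPKM + 1) scale, with an adjusted p of 0.234 from limma. Mir453 had 19.7 and 24.2 in WT and 5.77 and 8.98 in SMA motor neurons, and 0.314 and 0.14 in WT and 4.87 and 4.1 in SMA white matter. Its white matter reads were 2 and 1 in WT and 45 and 38 in SMA. The microRNA gene Mir100 had 0 and 0.333 in WT and 6.45 and 2.17 in SMA motor neurons and 0.804 and 2.44 against 0 and 0.111 in white matter. It differed in direction from Mir99a, which was higher in both regions.

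Without SMA motor neuron replicate 1, 13 genes passed an adjusted p of 0.05 over both regions (limma). Beside Smn1, Cdkn1a, Ptgds and Mt2 these were Timp1, Ccl3, Ndufs4, Pgk1, Ppp1cb, Prdx1, 2010107E04Rik, AF357425 and Mir5113, and the motor neuron part of each then rests on 1 SMA library, the one that stood apart.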
